A study of Mus musculus with 6 samples.

Results

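The 9 genes followed here break down heme, carry it across membranes or sense it, in mouse erythroid cultures exposed to NUP-17d, a small-molecule inhibitor of pleckstrin-2. They were chosen by name for these roles, but with earlier results of these data known, so the choice was not blind to the values. They are Hmox1, Hmox2, Blvra, Blvrb, Slc48a1, Flvcr1, Flvcr2, Abcg2 and Bach1, out of 17060 genes listed in at least 1 culture. Lineage-negative BM cells of WT mice, a fraction rich in stem and progenitor cells, were grown in a medium with erythropoietin (EPO), in which they mature into erythroblasts. For 48 h the cells received the vehicle DMSO (3 cultures) or NUP-17d (3 cultures), at a dose that the study's text gives as 10 μM. The labels do not say whether the cultures came from separate animals, so the p-values below measure only the spread between these cultures.

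Erythroid cells make large amounts of heme for hemoglobin, and free heme is toxic because it promotes oxidation. Heme oxygenases open the heme ring and release iron, carbon monoxide and biliverdin, which biliverdin reductases turn into bilirubin. Transporters carry heme out of lysosomes or out of the cell. The repressor BACH1, which leaves DNA and is degraded once it binds heme, holds down HMOX1 and other protective genes while heme is scarce.

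The deposited expected counts, estimates of the number of reads from each gene, summed to between 20076409 and 20419018 per culture. All 16 erythroid markers of the labelled cell type, erythroblast, had reads in every culture, and their summed level was 218109 to 252033 CPM (counts scaled to the library size after TMM, a correction for library composition) with DMSO and 120647 to 134959 CPM with NUP-17d. Each of the 16 was lower with NUP-17d by edgeR's quasi-likelihood test at an adjusted p of 0.05, and their median log2 fold change was -0.67, against 0.014 over all 12306 genes tested. With library totals only, 14 of the 16 were called lower and 0 higher, with a median of -0.40 against 0.28 over all genes. In bulk RNA, fewer cells of a type and less RNA per cell cannot be told apart.

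Among the 9 genes, Hmox1 RNA rose 2.12-fold with NUP-17d. The transcripts of the heme transporters Slc48a1 and Abcg2 and of the sensor Bach1 fell, with changes of -25.9%, -25.7% and -26.7%, and Blvrb fell by 19.4%. Hmox2 and Flvcr1 rose by 14.0% each, Blvra did not pass the test, and Flvcr2 had too few reads to be tested. Of the 8 genes tested, 7 were called (87.5%), compared with 35.3% of all genes tested. The higher calls were 3 (16.4% of all genes were called higher) and the lower calls were 4 (18.9% of all genes were called lower). The CPM ranges of the groups were apart for 7 of the 8, as was the case for 46.0% of all genes. The median log2 fold change of the 8 was -0.15.

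**Figure D1:**
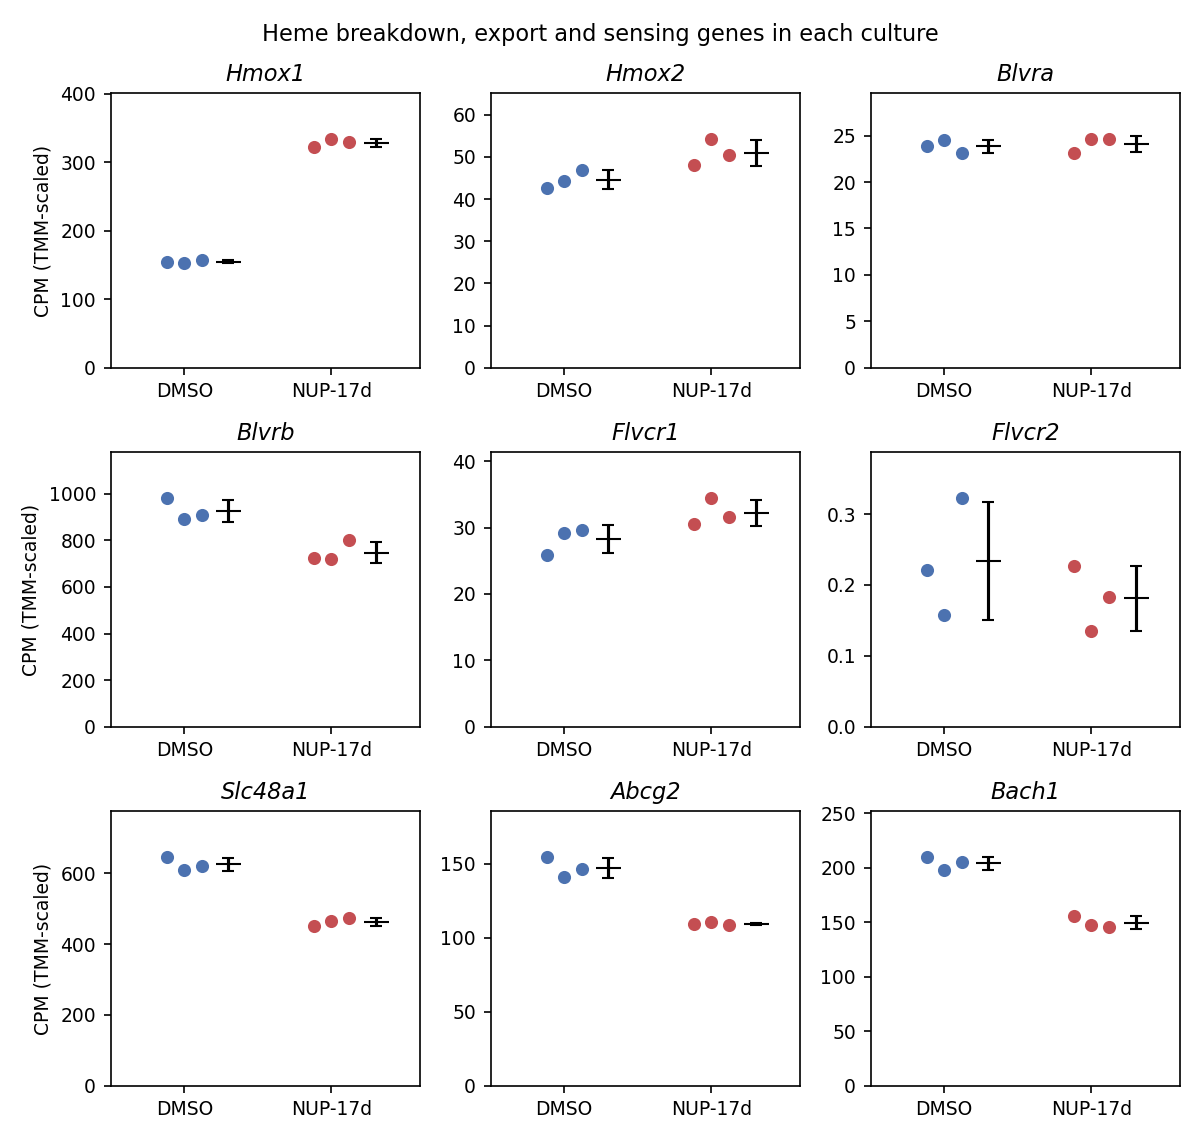
Level of each of the 9 genes (CPM, TMM-scaled, each panel from 0) in the 3 DMSO and 3 NUP-17d cultures, with points for cultures and bars for the mean ± SD. The NUP-17d cultures lie at 322 to 334 CPM for Hmox1, all above the DMSO cultures at 153 to 158 CPM, whereas Bach1, Slc48a1, Abcg2 and Blvrb lie lower with NUP-17d in every culture.

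Levels of different genes can be set side by side only per length, on the FPKM scale. With DMSO the order from high to low was Blvrb (1003 ± 25.5 FPKM, SD, n = 3), Slc48a1 (223 ± 0.941), Hmox1 (86.2 ± 2.67), Abcg2 (62.0 ± 1.23), Hmox2 (32.4 ± 2.10), Bach1 (31.2 ± 0.342), Blvra (15.6 ± 0.665), Flvcr1 (6.30 ± 0.658) and Flvcr2 (0.0600 ± 0.0200). Hmox2 and Bach1 were the only neighbours in this order whose DMSO cultures overlapped. With NUP-17d, Hmox1 (220.3 ± 4.89 FPKM) stood above Slc48a1 (199.6 ± 3.47 FPKM) in every culture, the reverse of their order with DMSO. FPKM carries no correction for library composition, so these levels are for the order of genes and not for the size of a change.

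**Figure D2:**
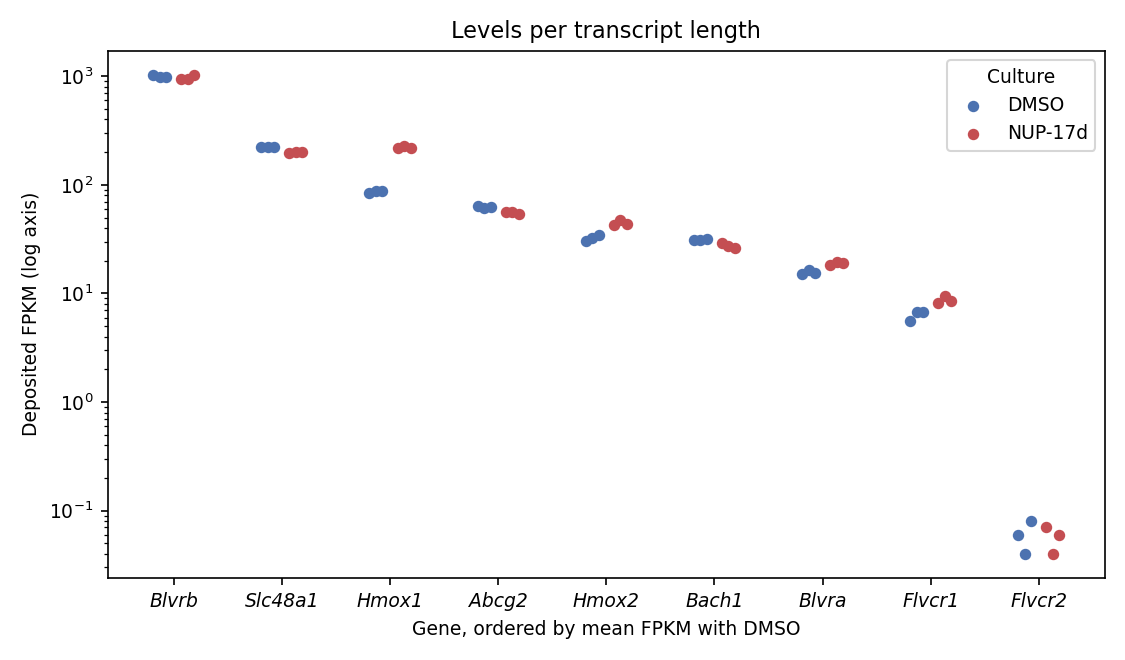
Level per transcript length (FPKM, log axis) of each of the 9 genes, with 1 point per culture, coloured by group. Blvrb is the highest in both groups (means of 1003 and 974 FPKM), Flvcr2 is the lowest, and Hmox1 moves above Slc48a1 with NUP-17d.

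Hmox1 (Entrez 15368, chr8:75093618-75100593, GRCm38) encodes the inducible heme oxygenase. Its level was 154, 153 and 158 CPM in the DMSO cultures and 322, 334 and 329 CPM in the NUP-17d cultures. Every NUP-17d culture was above every DMSO culture, by a gap far wider than the spread within either group. The log2 fold change was 1.08 (SE 0.035, 95% CI 1.01 to 1.15, edgeR adjusted p = 3.07e-18), and ranked 34 from the highest of the 12306 genes tested. The raw expected counts, with no scaling, were 2786 to 2938 with DMSO and 7128 to 7440 with NUP-17d.

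Macrophages are rich in HMOX1, since they clear old red cells, and markers of these cells moved in part with Hmox1. The summed level of 16 macrophage markers was 3004 to 3257 CPM with DMSO and 3368 to 3686 CPM with NUP-17d, and none of the 16 was at 0 in every culture. Of the 16, 5 rose, 3 fell and 8 did not pass the test, against 16.4% of all genes called higher and 18.9% lower. Their median log2 fold change was 0.064. With library totals only, 10 were called higher and 0 lower, with a median of 0.33 against 0.28 over all genes. On that scale 8458 of all 12306 genes tested were called higher and 657 lower. Lyz2, lysozyme, and Cd68, a lysosomal protein of macrophages, were the highest of the list per length and had log2 fold changes of 0.18 and 0.30 (edgeR adjusted p = 0.000891 and 3.56e-06). Adgre1, which encodes F4/80 and was looked up after its values were seen, had a log2 fold change of -0.15 (edgeR adjusted p = 0.0126), which became 0.12 with library totals only (adjusted p = 0.0520). The other markers that fell, also named after their values were seen, were C1qa, at a low level, and Cd14. Their log2 fold changes were -0.65 and -0.35 (edgeR adjusted p = 0.0199 and 0.00679). With library totals only they were at -0.38 and -0.083 (edgeR adjusted p = 0.113 and 0.464). The log2 ratio of the summed markers between the groups was 0.16, and 0.10 without Lyz2, a gene that neutrophils also express and that held most of the sum. The log2 fold change of Hmox1 was 1.08, and the part of these cells in the Hmox1 result was not tested.

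Hmox2 (Entrez 15369, chr16:4726361-4766742) encodes the constitutive heme oxygenase. It was measured at 42.7, 44.2 and 47.0 CPM with DMSO and at 48.0, 54.2 and 50.5 CPM with NUP-17d. The groups did not overlap, but the lowest NUP-17d culture was close to the highest DMSO culture. The log2 fold change was 0.19 (SE 0.050, 95% CI 0.086 to 0.29, edgeR adjusted p = 0.00421). Hmox2 overlaps Cdip1 in the annotation, and how the authors' counting treated strand is not given, so reads of the pair may have been shared.

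Within a culture, the ratio of Hmox1 to Hmox2 does not depend on how the libraries were scaled. The FPKM ratio was 2.76, 2.66 and 2.58 with DMSO and 5.15, 4.72 and 4.995 with NUP-17d. The ratio was higher in every NUP-17d culture, by 1.86-fold on average (log2 difference 0.89, 2-sided exact permutation test p = 0.1, the smallest that 3 against 3 cultures allow).

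Blvra and Blvrb encode the biliverdin reductases, of which BLVRB is also a flavin reductase abundant in red cells. Blvra (Entrez 109778, chr2:127070629-127097084) was measured at 23.9, 24.5 and 23.2 CPM with DMSO and at 23.1, 24.6 and 24.6 CPM with NUP-17d. The groups overlapped, and the log2 fold change of 0.016 (SE 0.057, 95% CI -0.10 to 0.13) did not pass the test (edgeR adjusted p = 0.860). Blvra overlaps Gm31414.

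Blvrb (Entrez 233016, chr7:27447978-27465981) was the most abundant of the 9 transcripts, at 981, 893 and 909 CPM with DMSO and 723, 720 and 801 CPM with NUP-17d. All NUP-17d cultures were below all DMSO cultures. Its log2 fold change was -0.31 (SE 0.042, 95% CI -0.40 to -0.22, edgeR adjusted p = 1.37e-06). Scaling by library totals alone gave -0.044 (edgeR adjusted p = 0.244), so the fall of Blvrb was called only with a correction for composition.

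The ratio of Blvrb to Blvra within a culture was 67.9, 60.1 and 65.0 with DMSO and 51.5, 48.3 and 53.7 with NUP-17d, on the FPKM scale. The groups did not overlap, and the log2 difference was -0.33 (2-sided exact permutation test p = 0.1, the smallest possible).

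**Figure D3:**
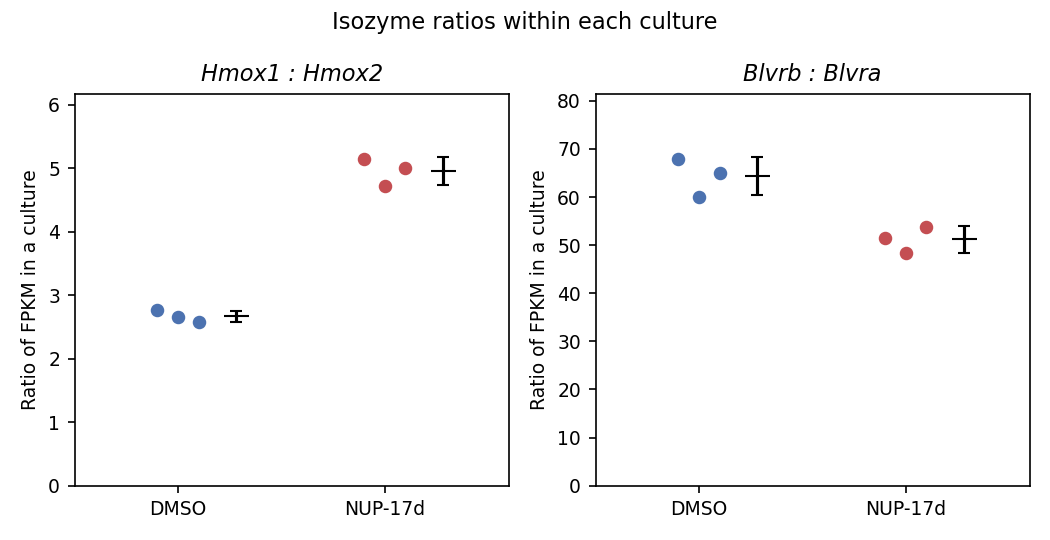
Ratios of FPKM within a culture for Hmox1 to Hmox2 and for Blvrb to Blvra, with points for cultures and bars for the mean ± SD of 3 cultures. The Hmox1 to Hmox2 ratio rises from 2.66 ± 0.0916 to 4.95 ± 0.217, and the Blvrb to Blvra ratio falls from 64.3 ± 3.95 to 51.2 ± 2.73.

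To show the DNA before these genes, RefSeq promoter windows (GRCm38.p6, from 250 bases before to 50 bases after a transcript start) were searched for motifs of factors known in erythroid and stress gene control. The motifs, searched on both strands, were GATA sites (AGATAA or TGATAA), the antioxidant response element core (TGACNNNGC) read by NRF2 and BACH1, the E-box (CACGTG) and the CACCC-type motif (CCNCNCCC), bound by Krüppel-like factors and also matching GC boxes. Windows were matched for 7 of the 9 genes, 12 windows in all, and none was matched for Hmox1 or Slc48a1. AGATAA or TGATAA was found in 0 of the 12 windows, against 18.6% of all 32851 windows. Other GATA spellings were not searched, such as the AGATAG in the Bach1 stretch printed below, so the 0 does not show that GATA sites are absent. The antioxidant response element core was found in 2 windows, those of Blvra and Flvcr1 (12.4% of all windows), and the E-box in 1, that of Flvcr2 (7.15%). A CACCC-type motif was found in 9 of the 12, against 49.5% of all windows. The 12 windows are not separate units, since Hmox2 and Abcg2 had 3 each and Blvrb 2. Windows 2 and 3 of Hmox2 overlap and share a match. A match is a run of letters and not a measured binding site.

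The 250 bases before the start are printed for Blvrb (chr7:27447728-27447977, + strand), whose RNA fell, for Flvcr1 (chr1:191026191-191026440, − strand), whose RNA rose slightly and which has the antioxidant response element core, and for Bach1 (chr16:87698704-87698953, + strand), whose RNA fell. They are read 5′ to 3′ toward the start, and capitals mark the motif matches that end before the start.
Blvrb: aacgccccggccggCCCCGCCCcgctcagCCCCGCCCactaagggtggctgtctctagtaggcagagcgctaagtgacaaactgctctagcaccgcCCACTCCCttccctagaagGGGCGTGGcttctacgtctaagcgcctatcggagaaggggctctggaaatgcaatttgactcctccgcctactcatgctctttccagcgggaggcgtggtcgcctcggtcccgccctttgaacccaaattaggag
Flvcr1: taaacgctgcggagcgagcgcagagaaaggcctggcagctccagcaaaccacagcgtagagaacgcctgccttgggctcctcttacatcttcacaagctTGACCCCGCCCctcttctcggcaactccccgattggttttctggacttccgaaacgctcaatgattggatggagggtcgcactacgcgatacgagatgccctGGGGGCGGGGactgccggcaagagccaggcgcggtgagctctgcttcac
Bach1: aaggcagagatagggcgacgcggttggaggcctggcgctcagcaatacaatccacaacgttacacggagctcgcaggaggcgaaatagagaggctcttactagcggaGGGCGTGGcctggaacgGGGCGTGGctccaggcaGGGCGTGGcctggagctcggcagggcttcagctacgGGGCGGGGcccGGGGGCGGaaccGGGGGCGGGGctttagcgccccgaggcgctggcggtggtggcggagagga
Blvrb has 4 matches in this stretch, all of the CACCC type. In Flvcr1 the antioxidant response element core TGACCCCGC, at positions -151 to -143 from the start, overlaps the CACCC-type match CCCCGCCC. Bach1 has 7 CACCC-type matches, 3 of them the same 8 letters, GGGCGTGG, beginning at positions -143, -126 and -109.

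Slc48a1 (Entrez 67739, chr15:97784365-97792692) encodes HRG1, which carries heme from lysosomes into the cytosol. It was measured at 646, 610 and 622 CPM with DMSO and at 452, 465 and 474 CPM with NUP-17d. No culture of one group reached the range of the other. The log2 fold change was -0.43 (SE 0.035, 95% CI -0.50 to -0.36, edgeR adjusted p = 1.28e-10). Slc48a1 overlaps Hdac7 in the annotation.

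Abcg2 (Entrez 26357, chr6:58584491-58692451) encodes an efflux pump of the plasma membrane that exports porphyrins and many drugs. Its level was 155, 141 and 146 CPM with DMSO and 109, 110.4 and 109 CPM with NUP-17d. The NUP-17d cultures were nearly equal and all below the DMSO cultures. The log2 fold change was -0.43 (SE 0.038, 95% CI -0.51 to -0.35, edgeR adjusted p = 8.24e-10).

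Flvcr1 (Entrez 226844, chr1:191005832-191026190) encodes a plasma membrane protein described as a heme exporter of erythroid precursors and, more recently, as a choline transporter. It was measured at 25.8, 29.3 and 29.7 CPM with DMSO and at 30.6, 34.4 and 31.7 CPM with NUP-17d. The groups did not overlap, although the highest DMSO culture and the lowest NUP-17d culture were less than 1 CPM apart. The log2 fold change was 0.19 (SE 0.060, 95% CI 0.066 to 0.31, edgeR adjusted p = 0.0150). The call was lost with DESeq2 (log2 fold change 0.19, adjusted p = 0.0688), without DMSO culture 1 (edgeR 0.13, adjusted p = 0.128) and without NUP-17d culture 2 (edgeR 0.14, adjusted p = 0.103). Flvcr1 overlaps A230020J21Rik.

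Flvcr2 (Entrez 217721, chr12:85746539-85813586), its relative, had 4, 3 and 6 expected counts with DMSO and 5, 3 and 4 with NUP-17d. At 13 against 12 counts in all, no difference was detectable at this depth. The FPKM ratio of Flvcr1 to Flvcr2 was 92.3, 167 and 83.5 with DMSO and 116, 237 and 141.5 with NUP-17d, and the groups overlapped (2-sided exact permutation test p = 0.3). That ratio rests on the 3 to 6 counts of Flvcr2. Flvcr2 overlaps Gm40478.

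Bach1 (Entrez 12013, chr16:87698954-87733346) encodes the heme-binding repressor. Its level was 209.7, 198 and 205 CPM with DMSO and 156, 147 and 146 CPM with NUP-17d. All NUP-17d cultures were below all DMSO cultures, and the spread within each group was small beside the gap. Its log2 fold change was -0.45 (SE 0.037, 95% CI -0.52 to -0.37, edgeR adjusted p = 2.20e-10), the lowest of the 8 genes tested. Slc48a1 and Abcg2 were close, at -0.43 each. Without NUP-17d culture 3, Slc48a1 (-0.45) was lower than Bach1 (-0.43). These are RNA levels, and BACH1 protein, which heme controls, was not measured here.

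**Figure D4:**
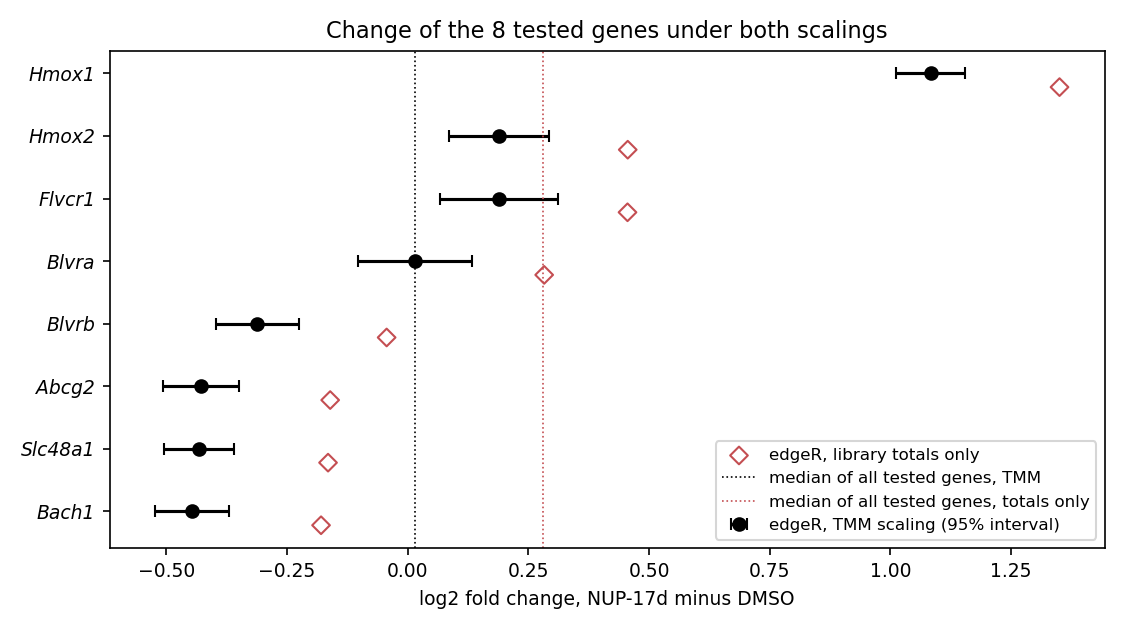
Log2 fold change with NUP-17d against DMSO (edgeR) of the 8 genes tested, as black points with the 95% CI for TMM scaling and open diamonds for library totals only, with dotted lines at the median of all genes on each scale. Hmox1 lies at 1.08 with TMM and 1.35 with totals, Blvra lies at 0.016 and 0.28, and Blvrb moves from -0.31 to -0.044.

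The choice of scaling matters here, and the libraries of the groups differed in composition. Hemoglobin RNA took 18.3% to 20.3% of the counts with DMSO and 11.8% to 13.1% with NUP-17d. How much of the difference between the scalings goes with this share was not tested. Scaling by library totals alone raised the median log2 fold change of all genes by 0.27 and called 74.1% of them. Of the 12306 genes, 8458 were then called higher and 657 lower, and the totals-only counts of each list are to be read beside these. On that scale 7 of the 8 genes were called, 4 higher and 3 lower, with Blvra added to the higher genes and Blvrb lost. Hmox1 then had a log2 fold change of 1.35, Hmox2 and Flvcr1 0.46 each, Slc48a1 -0.17, Abcg2 -0.16 and Bach1 -0.18. The directions of these 6 genes were the same on both scales, and the sizes other than that of Hmox1 differed by over 1.5 times.

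With TMM, 16.4% of all genes tested were called higher and 18.9% lower. The calls of each list below are to be read beside these shares. The other genes of heme and bile pigment handling were 21, of which 19 were tested, 3 rose, 8 fell and 8 did not pass. Their median log2 fold change was -0.031. With totals only, 12 were called higher and 3 lower (median 0.24, against 0.28 over all genes), so the balance of calls depends on the scaling. The lowest p-values belonged to Tspo2, an erythroid member of the translocator protein family (283 ± 10.4 CPM with DMSO and 195 ± 7.75 with NUP-17d, n = 3 each, log2 fold change -0.54, edgeR adjusted p = 7.06e-12), Abcb10, a mitochondrial inner membrane transporter needed for hemoglobin production (log2 fold change -0.48, adjusted p = 1.17e-11), and Slc25a39, a mitochondrial glutathione carrier (log2 fold change -0.58, adjusted p = 1.59e-11). Por, named after its values were seen, encodes the reductase that passes electrons to the heme oxygenases. It rose from 96.5 ± 0.184 to 119 ± 4.98 CPM (SD, n = 3, log2 fold change 0.30, edgeR adjusted p = 4.68e-07), with no overlap between the groups.

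Heme synthesis genes went mostly the other way from Hmox1. Of 11 tested, 10 fell and 1 rose, with a median log2 fold change of -0.55. Scaled by library totals alone, 9 were called lower and 2 higher (median -0.28). The lowest p-values belonged to Slc25a37, mitoferrin 1, which imports iron into mitochondria (log2 fold change -0.87, edgeR adjusted p = 3.27e-16), Fech, ferrochelatase, which puts iron into the ring (-0.74, adjusted p = 1.00e-14), and Alas2, the erythroid first enzyme of the pathway (-0.76, adjusted p = 3.07e-14). The gene that rose was Alas1, the first enzyme in other tissues (log2 fold change 0.18, edgeR adjusted p = 0.000733), singled out after its values were seen. Among the 16 erythroid markers, Trim10, a protein of terminal erythroid maturation (log2 fold change -0.95, edgeR adjusted p = 1.38e-16), and Hbb-bt, an adult β-globin (-0.92, adjusted p = 1.58e-14), had some of the lowest p-values. The 16 markers ranged from -1.08 to -0.24, with a median of -0.67. The log2 fold changes of Bach1 (-0.45), Slc48a1 (-0.43), Abcg2 (-0.43) and Blvrb (-0.31) lay inside that range. Each of these genes fell less than the marker median. Whether they share a source with the markers was not tested.

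BACH1 acts with small MAF proteins, and NRF2 competes with it for the same DNA. A list of 13 genes held these factors, their relatives, and regulators such as Keap1, the nuclear exporter Xpo1, ubiquitin ligase subunits and Hif1a. Of the 13, 12 were tested, 1 rose (Hif1a), 4 fell (Mafk, Mafg, Nfe2 and Xpo1) and 7 did not pass, with a median log2 fold change of 0.014. With totals only, 8 were called higher and 3 lower (median 0.28), and Xpo1 was at 0.083 and not called (edgeR adjusted p = 0.0540). Hif1a and Xpo1 were named after their values were seen. Mafk, a small MAF partner, fell from 404 ± 15.03 to 262 ± 8.94 CPM (SD, n = 3, log2 fold change -0.63, edgeR adjusted p = 2.29e-13). Nfe2, the erythroid factor that shares these partners, fell with a log2 fold change of -0.61 (edgeR adjusted p = 3.21e-13), and Mafg, a second small MAF, with one of -0.36 (adjusted p = 2.73e-08). Nfe2l2, which encodes NRF2 and was looked up after its values were seen, was at 162 ± 1.83 CPM with DMSO and 163 ± 2.71 with NUP-17d (log2 fold change 0.0085, edgeR adjusted p = 0.874). With library totals only, Nfe2l2 was called higher at 0.28 (edgeR adjusted p = 8.69e-07), against a median of 0.28 over all genes.

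Genes known as BACH1 or NRF2 targets other than Hmox1 were 14, and all were tested: 4 rose, 5 fell and 5 did not pass, with a median log2 fold change of 0.0035. Scaled by library totals alone, 10 were called higher and 1 lower (median 0.27, close to the 0.28 of all genes). Srxn1, sulfiredoxin, fell with a log2 fold change of -0.36 (edgeR adjusted p = 1.97e-09), and Gclm, the modifier subunit of the first enzyme of glutathione synthesis, with one of -0.31 (adjusted p = 6.27e-08). With totals only, Gclm was at -0.042 (edgeR adjusted p = 0.220) and was not called. Ftl1, the ferritin light chain that stores iron, rose from 5280 ± 157 to 6508 ± 158 CPM (SD, n = 3, log2 fold change 0.30, edgeR adjusted p = 6.67e-07). The highest log2 fold change among the 14 was that of Ftl1, and each lay below the 1.08 of Hmox1.

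Other proteins that respond to heme were 9, of which 8 were tested, 1 rose, 1 fell and 6 did not pass, with a median log2 fold change of 0.054. Scaled by library totals alone, 6 were called higher and 1 lower (median 0.32). Eif2ak1, the heme-regulated kinase that slows globin translation when heme is low, fell from 1248 ± 46.6 to 820 ± 14.1 CPM (SD, n = 3, log2 fold change -0.61, edgeR adjusted p = 2.91e-13). Nr1d2, the heme-binding nuclear receptor REV-ERBβ, rose at a low level (log2 fold change 0.29, edgeR adjusted p = 0.0247). Npas2, a heme-binding clock factor, had a log2 fold change of 0.36 and did not pass (adjusted p = 0.137).

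**Figure D5:**
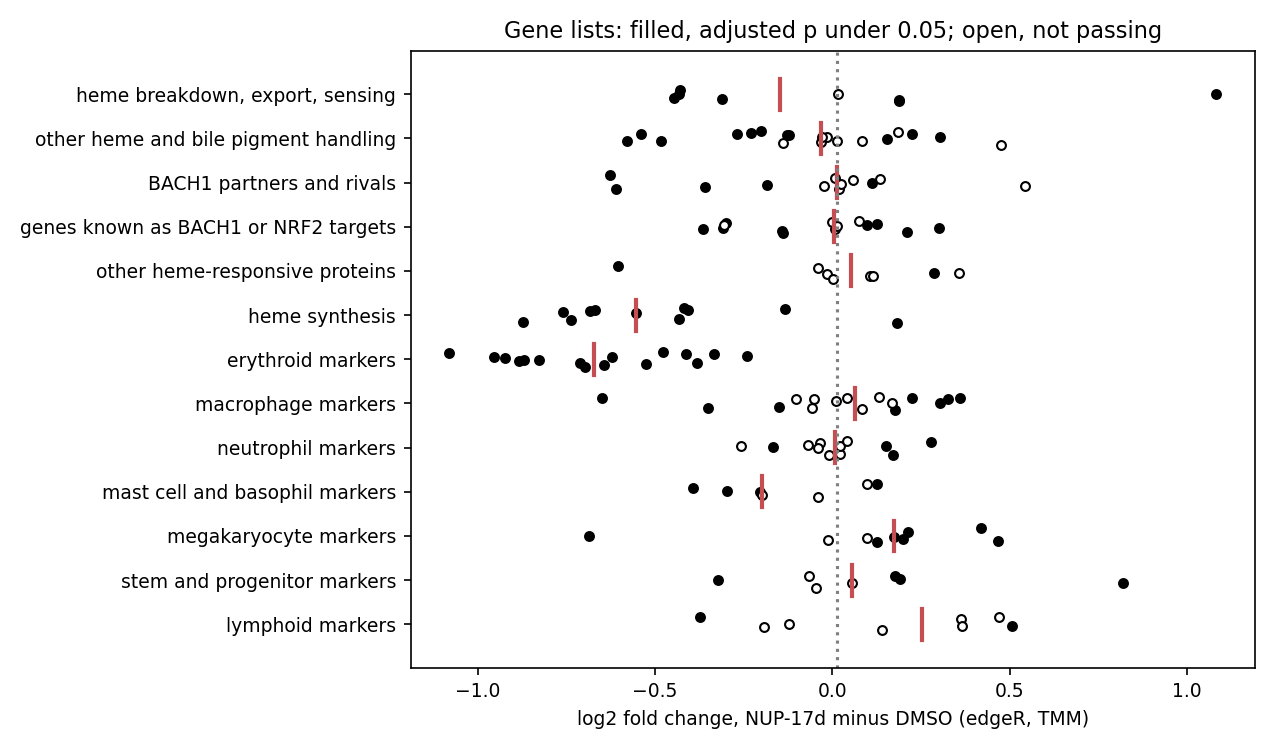
Log2 fold change (edgeR, TMM scaling) of each tested gene, by gene list, filled where the adjusted p was under 0.05, with a red bar at each list's median and a dotted line at the median of all 12306 genes. The erythroid markers (median -0.67) and heme synthesis genes (median -0.55) lie lowest, and Hmox1 (1.08) lies highest of all genes plotted.

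The genes whose 6 levels, on a log2 scale centred on their own mean, were nearest to those of Hmox1 among 9755 genes were Tek, an angiopoietin receptor (Euclidean distance 0.198, log2 fold change 0.99), Gpx3, a secreted glutathione peroxidase (0.210, log2 fold change 0.97), and Mmp12, the macrophage elastase (0.234, log2 fold change 1.16). Tek rose from 7.51 to 14.9 CPM, Gpx3 from 17.1 to 33.4 CPM and Mmp12 from 7.31 to 16.3 CPM. Nearest to Bach1 were 3110002H16Rik (distance 0.0646), D1Ertd622e (0.0671) and Nup153, a nuclear pore protein (0.0678), with log2 fold changes of -0.44, -0.48 and -0.43.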

How the data were processed

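RNA from 6 cultures, 3 with DMSO and 3 with NUP-17d for 48 h, was sequenced. Groups and culture numbers were read from the sample labels and the dose of 10 μM from the study's text. The authors deposited 1 table per culture with an expected count per gene, an estimate that need not be whole (27.8% to 28.5% of values were not), and an FPKM value, which the authors scaled by transcript length and library total with no correction for composition. A gene missing from a table was taken as 0. The submitters' processing notes name mm10, while the aligner, the counter and the annotation are not given in the sources used here. The labels describe poly(A) selection and random priming on a DNBseq instrument, and the study's methods name a stranded Illumina kit, so the use of strand in counting is unsure and reads of 5 members with an overlapping gene may have been shared. Coordinates are from RefSeq on GRCm38, matched by Entrez identifier.

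Expected counts were rounded, filtered with filterByExpr, scaled by TMM and tested with edgeR 4.0.16 (glmQLFit, glmQLFTest) in R 4.3.3, with Benjamini-Hochberg adjustment over 12306 genes and a threshold of 0.05. Ratios within a culture were compared with an exact permutation test. Alternatives were RLE scaling, library totals only, removal of hemoglobin genes, no filter, DESeq2 1.42.0, limma 3.58.1 on FPKM values with a pseudocount of 1 or 0.1 on the log2 scale, a block for the culture number, and omission of each culture in turn. The 9 genes and the gene lists were chosen with earlier results of these data known, and lists are described by counts and medians only. Named are the 9 genes, the 3 tested genes with the lowest p of each pathway or erythroid list, the 2 highest by FPKM of each list of other cells' markers, and the 3 tested genes (mean count of 100 or more) nearest to Hmox1 and to Bach1 (log2 of CPM + 0.5). One gene that this rule names is not reported here. Other genes are said to have been named after their values were seen. Scripts were tested on simulated data. The labels give no batch.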

Additional observations from a re-analysis of the deposited data

How the results depend on the processing

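The 8 members tested gave 112 fold changes under 14 alternatives, of which 101 kept their direction and their side of the threshold, and 5 of the 8 did so under every alternative. The number of members called was 6 to 7 throughout, also when each culture was left out. Blvra changed sign without DMSO culture 3 (-0.0061) and without NUP-17d culture 3 (-0.00083), at a distance from 0 far below its standard error, and ranged up to 0.045 with other cultures left out. Blvra was called with library totals only (0.28) and with limma on log2(FPKM + 1) and log2(FPKM + 0.1) (0.27 and 0.29), where Blvrb was not (-0.044, -0.043 and -0.043). Those 3 settings have no correction for composition, and they called 9115, 9059 and 9038 genes in place of 4346, with 92.8% of calls higher for library totals in place of 46.5%. Leaving out a culture gave 3713 to 4008 calls, and DESeq2 gave 3153. Over the alternatives the adjusted p of Flvcr1 ranged from 1.93e-06 to 0.128 and that of Hmox2 from 1.51e-07 to 0.0432.

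Log2 differences of the ratios ranged, with each culture left out, from 0.87 to 0.93 for Hmox1 to Hmox2, from -0.38 to -0.29 for Blvrb to Blvra and from 0.24 to 0.84 for Flvcr1 to Flvcr2. The labels do not say whether same-numbered cultures share animals or a day, and no pairing was assumed, with a mean correlation of their deviations of 0.016 over 3 pairs (-0.0046 to 0.057). With the number as a replicate block, 4543 genes and 7 members were called, no member's call changed, and the ratio differences were 0.89, -0.33 and 0.53 (exact p = 0.25, the smallest that 3 pairs allow).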

Other observations

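Markers of other blood lineages were present beside the erythroid ones. Per length, S100a9 and Mpo of the neutrophil lineage had means of 719 and 685 FPKM over the 6 cultures, above the 133 FPKM of the erythroid factor Klf1, which was picked for scale after its values were seen. Megakaryocyte markers summed to 463 to 510 CPM with DMSO and to 535 to 555 CPM with NUP-17d, and of 9 tested 6 rose, 1 fell and 2 did not pass, with a median log2 fold change of 0.17. Among them Pf4, platelet factor 4, had a log2 fold change of 0.17 (edgeR adjusted p = 0.00215) and Itga2b, the integrin of platelets, one of 0.13 (adjusted p = 0.00790). Mast cell and basophil markers summed to 316 to 328 CPM with DMSO and 292 to 303 CPM with NUP-17d, and of 7 tested 1 rose, 3 fell and 3 did not pass (median -0.20). Their highest members were the basophil proteases Prss34 (log2 fold change -0.30, edgeR adjusted p = 9.21e-07) and Mcpt8 (-0.39, adjusted p = 1.32e-06). With library totals only, neither was called (-0.029 and -0.13, edgeR adjusted p = 0.541 and 0.0548), and the list had 3 higher and 0 lower calls.

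Neutrophil markers summed to 4079 to 4245 CPM with DMSO and 4189 to 4461 CPM with NUP-17d, which overlap, and of 12 tested 3 rose, 1 fell and 8 did not pass (median 0.0066). S100a9, a subunit of calprotectin, and Mpo, myeloperoxidase, were at -0.0079 and 0.021 (edgeR adjusted p = 0.903 and 0.695). Stem and progenitor markers summed to 277 to 290 CPM and 279 to 292 CPM, and of 7 tested 3 rose, 1 fell and 3 did not pass (median 0.056). Ly6a, the Sca-1 antigen, had a log2 fold change of -0.32 (edgeR adjusted p = 1.18e-05) and Cd34 one of -0.046 (adjusted p = 0.381). Lymphoid markers were scarce, at 39.7 to 42.1 CPM and 50.5 to 56.2 CPM, and of 8 tested 1 rose, 1 fell and 6 did not pass (median 0.25). Il7r, the interleukin-7 receptor, rose (log2 fold change 0.51, edgeR adjusted p = 3.30e-08) and Cd79a, a B cell receptor subunit, fell (-0.37, adjusted p = 0.0360). With library totals only, Ly6a and Cd79a were not called (-0.055 and -0.10, edgeR adjusted p = 0.383 and 0.490). On that scale the higher and lower calls were 8 and 1 for megakaryocyte, 9 and 0 for neutrophil, 6 and 0 for stem and progenitor, and 2 and 0 for lymphoid markers. Over all 12306 genes they were 8458 and 657, with a median log2 fold change of 0.28. With TMM, 16.4% of all genes were called higher and 18.9% lower.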
